A study of Mus musculus with 12 samples.

Results

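The expression of 10 early-response regulators was followed in the cortex and hippocampus of irradiated mice. They are *Ier2*, *Ier3*, *Ier5* and *Ier5l* of the immediate early response group, *Btg1* and *Btg2* of the BTG/TOB group, *Gadd45b* and *Gadd45g* of the GADD45 group, and the Polo-like kinases *Plk2* and *Plk3*. They were chosen by gene symbol, as rapidly induced growth and stress regulators outside the AP-1, Egr and Nr4a families, and are 10 of the 23183 genes listed in each library. RNA sequencing was performed on the cortex and hippocampus of male C57BL/6 mice that arrived at 7 weeks of age and were acclimatized for 1 week. The sham group (Con) received 0 Gy, and the irradiated group (IR) received a single dose of 10 Gy to the whole brain. The tissue was studied 3 months later, with 3 Con and 3 IR libraries from each region. Both groups were of the same strain, and the labels name no transgene or other agent. The labels do not say whether the 3 libraries of a group came from separate mice, so a p value measures the spread between these libraries. Expression is given as FPKM, which are fragments scaled to the length of a transcript and to the mapped fragments of a library. All 10 genes reached 0.5 FPKM in at least 3 of 6 libraries of both regions.

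Immediate-early genes are transcribed within minutes of a stimulus, such as a growth factor, synaptic activity or DNA damage, from transcription factors already present in the cell. In neurons CREB, which binds the cAMP response element (CRE), and serum response factor, which binds the CArG box, are the best known of these factors, and p53 induces several of the same genes after ionizing radiation. Several products of the 10 genes act as brakes. BTG proteins recruit the CCR4-NOT deadenylase to mRNA and restrain proliferation, GADD45 proteins activate p38 and JNK signaling through MAP3K4 and take part in DNA repair and demethylation, and PLK2 and PLK3 act in stress checkpoints and, for PLK2, in weakening synapses during sustained activity. IER proteins are small regulators, among which IER5 is known to bind PP2A and HSF1 and IER3 to modulate cell survival.

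In the cortex *Ier5* and *Plk3* rose in IR, and in the hippocampus none of the 10 genes passed the test. *Ier5* was 1.51-fold and *Plk3* 1.52-fold as high in the IR cortex as in Con by the ratio of the group means. The call of *Ier5* held under the 14 alternative settings with a test of their own, and that of *Plk3* was lost in 8 of 14, among them the omission of any 1 cortex library other than Con 3. The test was limma on log2(FPKM + 1), and a gene was said to rise or fall at a Benjamini-Hochberg adjusted p under 0.05. In the cortex 2 of the 10 genes rose, where 0.562% of the 14065 tested genes did. In the hippocampus 0 of the 10 genes changed at an adjusted p under 0.05 by limma, where 0.0285% of 14043 genes did. Without hippocampus Con 3 the share of all genes was 6.33%, and 0 of the 10 passed there as well. The effect of irradiation differed between the regions for *Ier5*, where the interaction was -0.73 in log2 units (adjusted p = 0.0359 by limma). That call was lost with a replicate block, which took libraries of the same treatment and number as the same mouse (adjusted p = 0.141 by limma). It was also lost on leaving out any 1 of 10 of the 12 libraries.

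The promoters of *Ier5* and *Plk3* are shown because these genes rose in the cortex, and those of *Plk2* and *Btg2* because they hold the full CRE. The sequences are the 250 bases before the RefSeq start on GRCm38.p6, written 5′ to 3′ on the strand of the gene. Capitals mark the core of the CRE, TGACG or its reverse complement CGTCA, and a run of 8 capitals is the full palindromic site TGACGTCA. *Ier5* (chr1:155099637-155099886, minus strand), *Plk3* (chr4:117133964-117134213, minus strand), *Plk2* (chr13:110394794-110395043, plus strand) and *Btg2* (chr1:134079156-134079405, minus strand) read as follows.
Ier5: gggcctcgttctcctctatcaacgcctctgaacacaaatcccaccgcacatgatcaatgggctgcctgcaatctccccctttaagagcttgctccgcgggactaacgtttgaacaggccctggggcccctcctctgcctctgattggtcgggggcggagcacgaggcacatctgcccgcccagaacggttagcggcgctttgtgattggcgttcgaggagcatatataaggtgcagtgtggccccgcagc
Plk3: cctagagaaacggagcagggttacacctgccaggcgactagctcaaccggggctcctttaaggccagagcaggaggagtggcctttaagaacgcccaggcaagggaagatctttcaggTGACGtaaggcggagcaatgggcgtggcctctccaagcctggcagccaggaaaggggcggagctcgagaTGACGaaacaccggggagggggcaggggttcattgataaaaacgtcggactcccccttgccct
Plk2: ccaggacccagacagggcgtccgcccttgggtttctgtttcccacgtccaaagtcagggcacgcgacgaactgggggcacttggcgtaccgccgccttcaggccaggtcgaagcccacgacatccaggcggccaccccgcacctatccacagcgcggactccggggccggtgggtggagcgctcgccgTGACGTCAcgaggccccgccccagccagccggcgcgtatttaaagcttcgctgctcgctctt
Btg2: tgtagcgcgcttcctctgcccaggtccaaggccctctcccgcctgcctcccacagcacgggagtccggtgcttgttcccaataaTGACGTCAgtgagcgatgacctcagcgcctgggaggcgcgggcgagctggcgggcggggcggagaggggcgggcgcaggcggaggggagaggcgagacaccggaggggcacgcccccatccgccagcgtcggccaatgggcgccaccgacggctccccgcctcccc

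Windows were found for 9 of the 10 genes, all except *Ier2*. Each motif was searched on both strands of the 250 bases, and its share of all 32851 windows of the same length is given beside it. The full CRE TGACGTCA was found in *Plk2* and *Btg2* and in 1.55% of all windows. At least 1 core TGACG, which is also counted within the full site, was found in *Plk3*, *Btg1*, *Plk2* and *Btg2* and in 17.8% of all windows. In *Plk3* the 2 cores begin 132 and 63 bases before the start, and in *Btg1* 187 and 103 bases before it. The p53 decamer motif was matched in *Ier5* alone among the 9 genes and in 7.13% of all windows, and the NF-kB site in *Ier3* alone and in 7.25%. The E-box CACGTG was found in *Gadd45b* and *Gadd45g* and in 6.02% of all windows. The CCAAT box, written CCAAT, was found in 7 of the 9 genes and in 33.8% of all windows. No CArG box was matched in the 9 windows, against 1.47% of all windows, which says only that these letters are not within this stretch. These are matches of letters and not binding sites.

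The libraries were alike in scale. FPKM summed to between 359773 and 393447, median ratios to the geometric mean of all libraries lay between 0.989 and 1.02, and no pair of libraries held identical values. The regional labels were borne out by marker genes. The 3 dentate granule cell genes *Prox1*, *Dsp* and *C1ql2* summed to 4.08 to 6.16 FPKM in the cortex and 69.2 to 95.3 FPKM in the hippocampus, whereas the cortical layer genes *Fezf2*, *Rorb* and *Cux2* summed to 53.9 to 57.5 and 17.4 to 23.3 FPKM. Choroid plexus genes, 4 in number, varied widely within groups, between 4.30 and 436 FPKM in cortex libraries and between 21.7 and 1636 FPKM in hippocampus libraries. The file columns of cortex and hippocampus libraries carry different endings, so region and a possible processing run cannot be told apart.

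Cortex Con 1 stood apart for the genes described here. It had the lowest value of the 3 Con libraries for 8 of the 10 genes, whereas it was lowest for 28.2% of all tested genes. The same held for 21 of 24 other rapid-response genes such as *Egr3* and *Homer1*. The values of the 10 genes without it are given where they bear on a result. In the hippocampus IR 1 was the lowest IR library for 8 of the 10 genes, against 44.8% of all tested genes. The map of deviations from the Con mean shows both libraries.

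**Figure D1:**
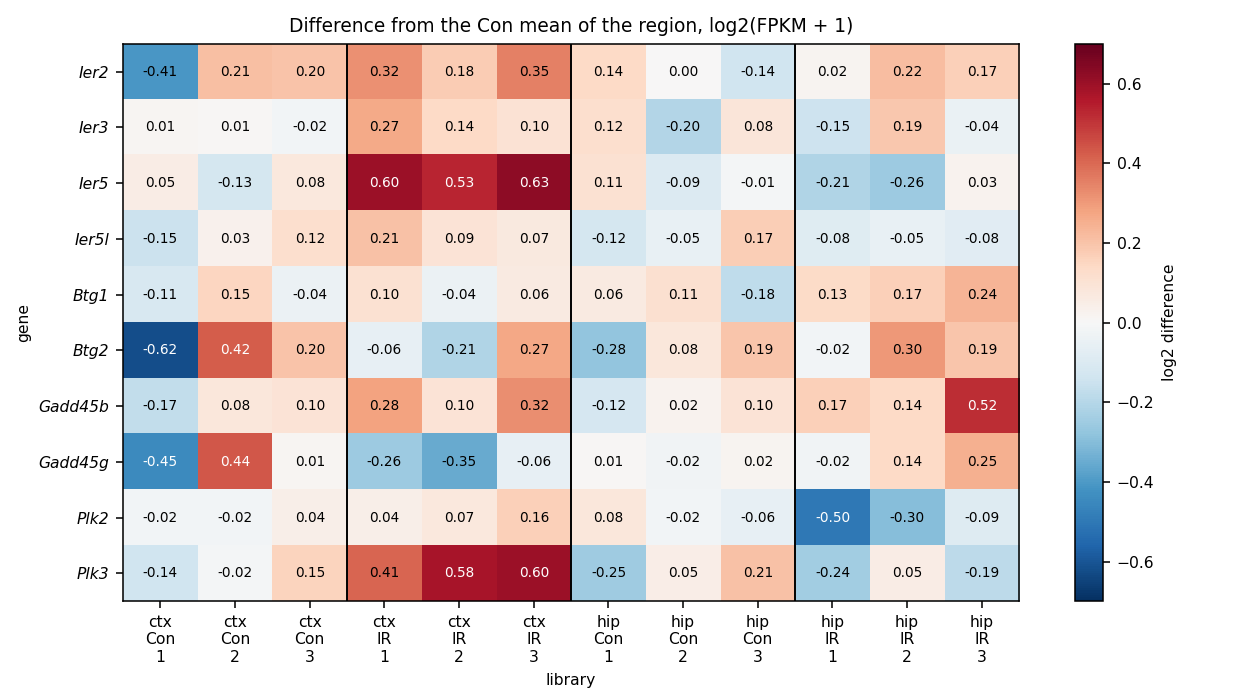
Difference of each library from the Con mean of its region in log2(FPKM + 1), with genes as rows and the 12 libraries as columns (ctx, cortex; hip, hippocampus), red above and blue below 0. *Ier5* and *Plk3* are above 0 in the 3 cortex IR libraries, *Btg2*, *Gadd45g* and *Ier2* are lowest among cortex Con in Con 1, and *Plk2* is below 0 in the 3 hippocampus IR libraries.

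*Ier5* is a gene of 1 exon on chr1:155096361-155099636 (minus strand, GRCm38). In the cortex it was listed at 31.9, 28.1 and 32.5 FPKM in Con and at 47.2, 44.9 and 48.0 FPKM in IR. Every IR library was well above every Con library. The means were 30.8 ± 2.36 and 46.7 ± 1.57 FPKM in Con and IR (SD, n = 3). On the log2 scale the difference was 0.59 (SE 0.06, 95% confidence interval 0.44 to 0.73, adjusted p = 0.00497 by limma), the 12th smallest p of the 14065 genes. Without cortex Con 1 it was 0.61 (adjusted p = 0.0114 by limma). *Ier5* was the only one of the 10 genes with a modelled fold of at least 1.5 and an unadjusted p under 0.05, criteria met upward by 0.391% of tested genes. Its modelled fold lay at 1.501, just inside that limit.

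In the hippocampus the *Ier5* values were 12.9, 11.1 and 11.8 FPKM in Con and 10.2, 9.80 and 12.1 FPKM in IR. IR 1 and IR 2 lay below the Con libraries and IR 3 lay among them. The log2 difference was -0.15 (SE 0.09, adjusted p = 0.486 by limma). The effect of irradiation in the hippocampus minus that in the cortex was -0.73 (SE 0.12, 95% confidence interval -0.99 to -0.48, adjusted p = 0.0359 by limma), and 1 of the 10 genes passed this test, against 0.083% of 14459 genes. Direction and size held without any 1 library, between -0.82 and -0.67. The adjusted p rose above 0.05 when any 1 of the 6 cortex libraries or Con 1, Con 2, IR 1 or IR 2 of the hippocampus was left out (0.0596 to 0.139), and stayed below it without Con 3 (0.0144, where 3.38% of all genes passed) or IR 3 (0.0275) of the hippocampus. It was also above 0.05 with the replicate block (0.141), with no filter on low values (0.0828) and without trend or robust prior (0.0791). No gene at all passed with the block, without trend or robust prior, or without cortex Con 1, IR 1, IR 2 or IR 3 or hippocampus IR 1 or IR 2.

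*Ier3*, a stress-induced regulator of cell survival, was close to constant in cortex Con at 7.52, 7.50 and 7.34 FPKM. In IR it was listed at 9.17, 8.32 and 8.07 FPKM, all above Con. The log2 difference of 0.17 (SE 0.07) did not pass after adjustment (unadjusted p = 0.0325, adjusted p = 0.305 by limma). Without Con 1 it was 0.18 (unadjusted p = 0.0594). In the hippocampus the groups overlapped, with 3.38, 2.50 and 3.27 FPKM in Con and 2.64, 3.60 and 2.91 FPKM in IR, and the means were equal to 3 digits at 3.05 FPKM.

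*Ier2*, a nuclear regulator of transcription, was spread widely in cortex Con. There Con 1 was listed at 6.93 FPKM, and Con 2 and Con 3 at 11.2 and 11.1 FPKM. The IR libraries at 12.1, 10.9 and 12.4 FPKM overlapped with the latter. The log2 difference was 0.28 with all libraries (SE 0.15, adjusted p = 0.455 by limma) and 0.08 without Con 1. In the hippocampus *Ier2* ranged from 2.96 to 3.81 FPKM in Con and from 3.43 to 4.08 FPKM in IR, a log2 difference of 0.13 (adjusted p = 0.552). *Ier5l*, a paralog of *Ier5*, overlapped between the groups in both regions. It was listed at 15.0, 17.2 and 18.3 FPKM in cortex Con and at 19.5, 17.9 and 17.6 FPKM in IR, a log2 difference of 0.12 (adjusted p = 0.517) that was 0.05 without Con 1. In the hippocampus it ranged from 7.28 to 9.16 FPKM in Con and from 7.50 to 7.69 FPKM in IR (log2 difference -0.07, adjusted p = 0.722).

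**Figure D2:**
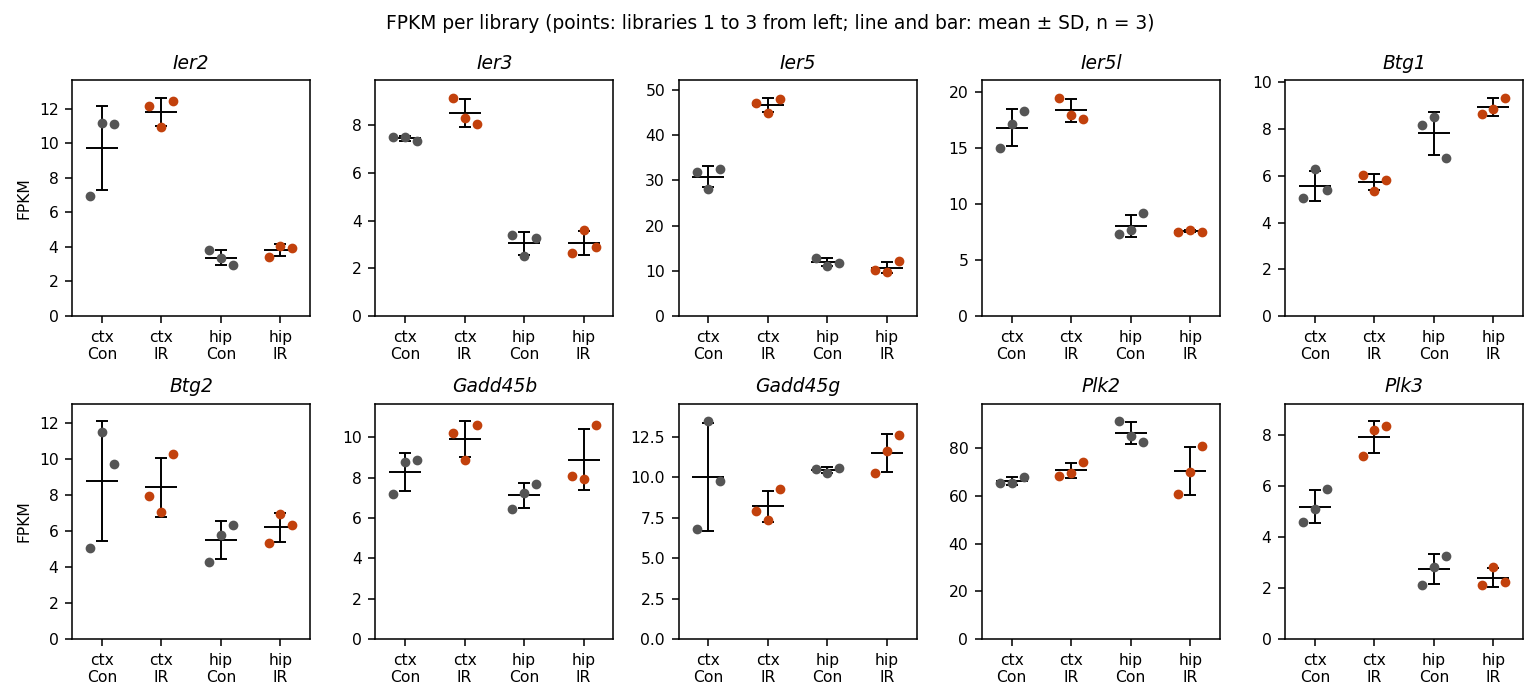
FPKM of the 10 genes in each of the 12 libraries, with 1 panel per gene, the 4 groups on the horizontal axis (ctx, cortex; hip, hippocampus) and FPKM from 0 on the vertical axis; points are libraries 1 to 3 from left, and the line and bar are the mean ± SD. The cortex IR points of *Ier5* (44.9 to 48.0 FPKM) and *Plk3* (7.20 to 8.35 FPKM) lie above their Con points, and *Ier2*, *Btg2* and *Gadd45g* show the low point of cortex Con 1.

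*Plk3*, a kinase of the stress and DNA damage response, lies on chr4:117128655-117133963 (minus strand, GRCm38) and has up to 15 exons. In the cortex it was listed at 4.62, 5.12 and 5.88 FPKM in Con and at 7.20, 8.21 and 8.35 FPKM in IR. The groups did not overlap. The means were 5.20 ± 0.635 and 7.92 ± 0.627 FPKM (SD, n = 3), and the log2 difference was 0.53 (SE 0.09, 95% confidence interval 0.32 to 0.73, adjusted p = 0.0397 by limma). *Plk3* ranked 71st by p among 14065 genes. Leaving out a library kept the difference between 0.46 and 0.60. The adjusted p was above 0.05 without cortex Con 1 (0.0810), Con 2 (0.0760), IR 1 (0.0920), IR 2 (0.128) or IR 3 (0.118), and below it only without Con 3 (0.0379).

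*Plk3* overlaps *Tctex1d4* on the opposite strand, whose cortex values ran from 0 to 0.501 FPKM and which reached 1.19 FPKM in the hippocampus. The library kit keeps the strand, but whether the counting used it is not given in the sources used here, so reads of the overlap cannot be assigned with certainty. In the hippocampus *Plk3* was listed at 2.12, 2.83 and 3.28 FPKM in Con and at 2.14, 2.84 and 2.27 FPKM in IR. The groups overlapped, and the log2 difference was -0.13 (SE 0.14, adjusted p = 0.684). The interaction of -0.65 (SE 0.17, 95% confidence interval -1.03 to -0.28) did not pass after adjustment (unadjusted p = 0.00224, adjusted p = 0.242 by limma).

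*Plk2* had the highest level of the 10 genes in every group. This kinase phosphorylates synaptic proteins and is encoded on chr13:110395046-110400844 (plus strand, GRCm38). The hippocampus Con libraries were at 91.2, 84.8 and 82.6 FPKM and the IR libraries at 60.6, 69.9 and 80.7 FPKM. The 3 IR libraries lay below the 3 Con libraries, although IR 3 was close to Con 3. Means were 86.2 ± 4.48 and 70.4 ± 10.1 FPKM (SD, n = 3), and the log2 difference of -0.30 (SE 0.10) did not pass after adjustment (unadjusted p = 0.0215, adjusted p = 0.311 by limma). Without IR 1 it was -0.19. The cortex values of *Plk2* were closer together, at 65.2, 65.3 and 68.0 FPKM in Con and at 68.2, 69.5 and 74.2 FPKM in IR. The IR libraries were above Con with a log2 difference of 0.09 (adjusted p = 0.466). *Plk2* was thus listed above Con in the cortex and below it in the hippocampus without overlap, as were 61 of the 14459 genes (0.422%). The interaction of -0.39 (SE 0.12, 95% confidence interval -0.65 to -0.13) had an unadjusted p of 0.00670 and an adjusted p of 0.330 by limma.

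*Gadd45b*, an activator of p38 signaling induced by stress and synaptic activity, was higher by a similar size in both regions without passing in either. The cortex libraries were at 7.20, 8.76 and 8.88 FPKM in Con and at 10.2, 8.88 and 10.6 FPKM in IR. IR 2 and Con 3 were equal to 3 digits, and the log2 difference was 0.23 (unadjusted p = 0.0300, adjusted p = 0.297 by limma). Without cortex Con 1 it was 0.15. In the hippocampus *Gadd45b* was listed at 6.46, 7.23 and 7.67 FPKM in Con and at 8.09, 7.93 and 10.6 FPKM in IR. The groups did not overlap there, and the log2 difference was 0.28 (unadjusted p = 0.0437, adjusted p = 0.350 by limma) and 0.15 without IR 3. The interaction was 0.04 (95% confidence interval -0.30 to 0.38, adjusted p = 0.947).

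*Gadd45g*, a paralog of *Gadd45b*, was the only one of the 10 genes with a negative log2 difference in the cortex. It was listed at 6.84, 13.5 and 9.77 FPKM in Con and at 7.95, 7.38 and 9.27 FPKM in IR. The 3 IR values lay between those of Con 1 and Con 3. The log2 difference was -0.22 (SE 0.20, adjusted p = 0.677) and -0.45 without Con 1 (unadjusted p = 0.00737, adjusted p = 0.196 by limma). The hippocampus values were 10.5, 10.3 and 10.6 FPKM in Con and 10.3, 11.6 and 12.6 FPKM in IR, with a log2 difference of 0.12 (adjusted p = 0.507). It was 0.19 without IR 1 (unadjusted p = 0.0405, adjusted p = 0.592 by limma) and 0.06 without IR 3.

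*Btg2*, a p53-inducible antiproliferative gene, had the widest spread in cortex Con, at 5.06, 11.5 and 9.70 FPKM. The coefficient of variation was 38.0%, against 2.38% for *Plk2* in the same libraries. The IR libraries at 7.96, 7.07 and 10.2 FPKM lay within that range, and the log2 difference was 0.0010 (SE 0.29). Without cortex Con 1 it was -0.31 (unadjusted p = 0.0467, adjusted p = 0.371 by limma), and it was -0.13 without IR 3 and 0.21 without Con 2. In the hippocampus *Btg2* was listed at 4.31, 5.80 and 6.35 FPKM in Con and at 5.35, 6.92 and 6.35 FPKM in IR, a log2 difference of 0.16 (adjusted p = 0.602).

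*Btg1*, which is abundant in resting cells, was listed at 5.05, 6.27 and 5.37 FPKM in cortex Con and at 6.04, 5.37 and 5.84 FPKM in cortex IR (log2 difference 0.04, adjusted p = 0.872, and -0.01 without Con 1). The groups overlapped fully. In the hippocampus it was at 8.18, 8.50 and 6.77 FPKM in Con and at 8.62, 8.87 and 9.34 FPKM in IR. The IR libraries were above Con there by a log2 difference of 0.18 that did not pass (unadjusted p = 0.0835, adjusted p = 0.408 by limma).

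Over the 10 genes in the cortex, 9 had a positive log2 difference, with a median of 0.15 against 0.0016 over all tested genes, of which 50.5% were higher. The median was 0.08 without cortex Con 1. The unadjusted p was under 0.05 upward for 4 genes, *Ier3*, *Ier5*, *Gadd45b* and *Plk3*, against 8.16% of all genes. The 3 IR libraries lay above the 3 Con libraries for 4 genes, *Ier3*, *Ier5*, *Plk2* and *Plk3*, against 11.2%. Without cortex Con 1 the unadjusted p was under 0.05 upward for 2 genes and downward for 2, against 7.73% and 5.46% of 13942 genes, and 7 were higher. In the hippocampus 5 of the 10 genes were higher, with a median of 0.06 against -0.0100 over all genes, of which 47.3% were higher. That median ran from 0.0027 without IR 2, 0.0059 without Con 2 and 0.04 without IR 3 to 0.13 without IR 1. The unadjusted p was under 0.05 there for *Gadd45b* upward and *Plk2* downward, 2 of 10 genes against 13.9%. Con and IR did not overlap for 3 genes, *Btg1*, *Gadd45b* and *Plk2*, against 19.8% of all genes. Both hippocampus counts are near their background. The unadjusted interaction p was under 0.05 for 3 genes, *Ier5*, *Plk3* and *Plk2*, against 10.4%, all with the lower effect in the hippocampus. The interaction uses the same libraries as the comparisons within each region.

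**Figure D3:**
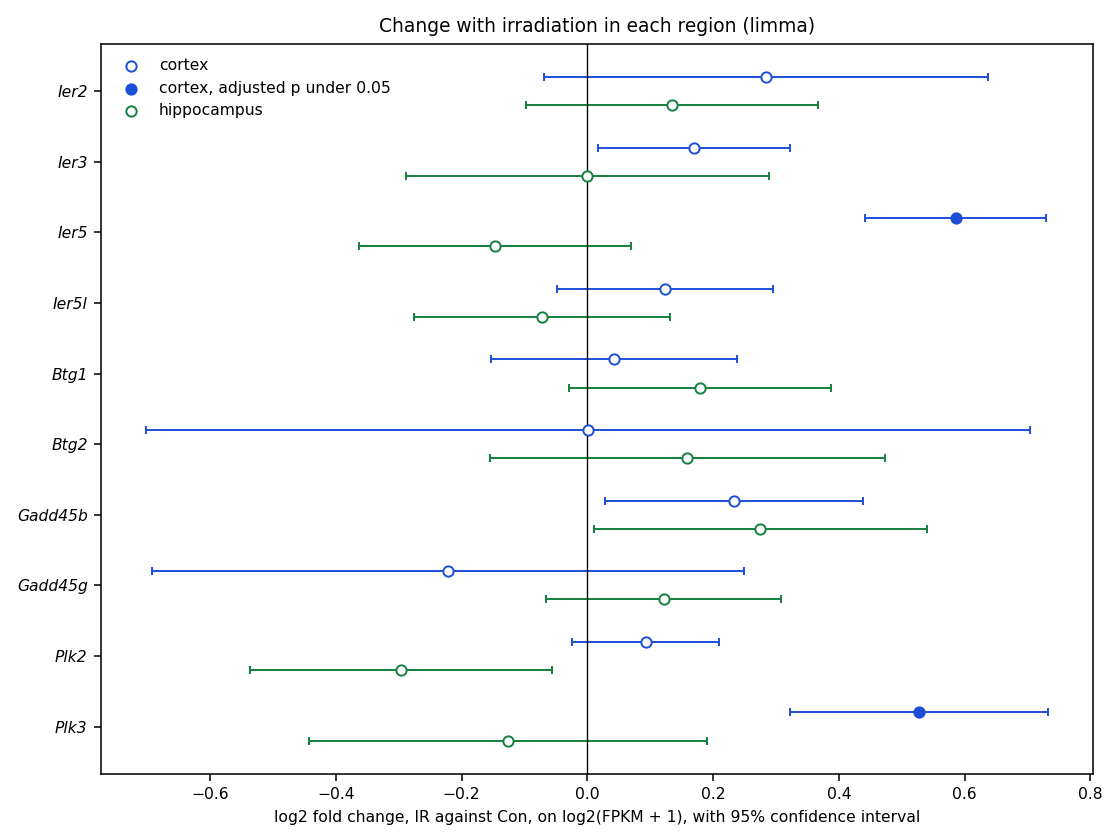
Log2 fold change of IR against Con for the 10 genes (vertical axis) on the log2(FPKM + 1) scale (horizontal axis), in blue for the cortex and green for the hippocampus, with 95% confidence intervals from limma. Filled points, *Ier5* at 0.59 and *Plk3* at 0.53 in the cortex, have an adjusted p under 0.05, and the intervals of *Btg2* and *Gadd45g* in the cortex are the widest.

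**Figure D4:**
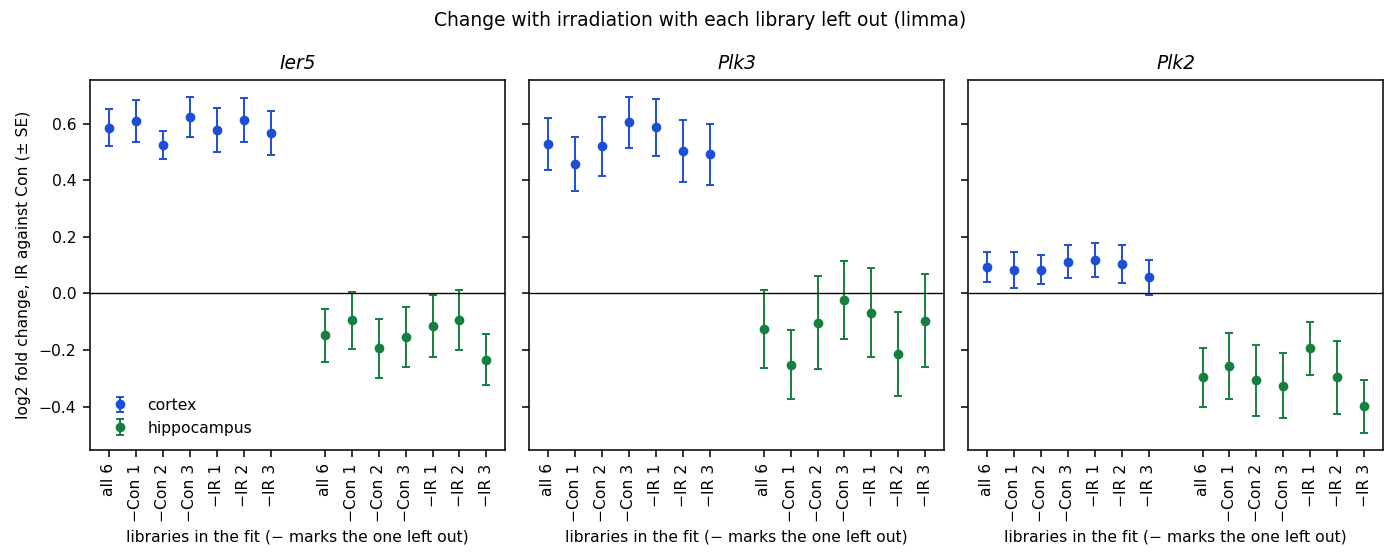
Log2 fold change of IR against Con ± SE for *Ier5*, *Plk3* and *Plk2* (panels) with all 6 libraries of a region and after leaving out 1 library at a time (horizontal axis), in blue for the cortex and green for the hippocampus. The cortex values of *Ier5* stay between 0.52 and 0.62 and those of *Plk3* between 0.46 and 0.60, while the hippocampus values of *Plk2* stay between -0.40 and -0.19.

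The level of most of these genes differed between the regions already in Con. Of the 10 genes, 7 passed the test of hippocampus Con against cortex Con, against 36.3% of 14169 genes. The 4 IER genes and *Plk3* were lower in the hippocampus. The log2 difference was -1.30 for *Ier5* (adjusted p = 4.36e-06 by limma), -1.27 for *Ier2*, -1.07 for *Ier3*, -0.98 for *Ier5l* and -0.74 for *Plk3*. *Plk2* (0.38, adjusted p = 0.00356 by limma) and *Btg1* (0.42, adjusted p = 0.0132 by limma) were higher in the hippocampus. The adjusted p of *Btg1* was 0.0570 without cortex Con 1 and 0.0547 without hippocampus Con 2. *Btg2* at -0.54 (adjusted p = 0.166), *Gadd45b* at -0.19 and *Gadd45g* at 0.10 did not pass. Without cortex Con 1 *Btg2* was at -0.85 (adjusted p = 0.00344 by limma). The 2 genes that rose in the cortex were thus among the 5 with a lower level in the hippocampus, and region and a possible processing run cannot be told apart.

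FPKM is scaled to transcript length, so the levels may be ordered between genes. In cortex Con the means ran from *Plk2* at 66.1 FPKM over *Ier5* at 30.8 and *Ier5l* at 16.8 FPKM to *Gadd45g*, *Ier2* (9.73 FPKM), *Btg2*, *Gadd45b* and *Ier3* (7.45 FPKM), and then *Btg1* at 5.57 and *Plk3* at 5.20 FPKM. Among the 5 genes in the middle each neighbour overlapped with the next, as did *Btg1* and *Plk3*. In cortex IR *Plk3*, at 7.92 FPKM, was above *Btg1*, at 5.75 FPKM, without overlap. In hippocampus Con *Plk2* at 86.2 FPKM stood far above *Ier5* at 11.9 and *Gadd45g* at 10.5 FPKM, and *Ier2*, *Ier3* and *Plk3*, between 3.39 and 2.74 FPKM, were last and overlapped.

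None of the closest relatives of the 10 genes passed the test with all libraries. Of 8 other BTG/TOB, GADD45 and Polo-like genes, 7 were tested, with a median of -0.0077 in the cortex and -0.06 in the hippocampus. *Gadd45a*, the classical DNA damage member of its family, had cortex means of 3.90 FPKM in Con and 6.11 FPKM in IR, a log2 difference of 0.55 (unadjusted p = 0.000956, adjusted p = 0.0810 by limma). It was 0.41 without cortex Con 1 (adjusted p = 0.102) and 0.65 without Con 2 (adjusted p = 0.0475, where 0.437% of all genes rose). In the hippocampus it was 0.09. *Plk5*, a Polo-like protein expressed in brain, was at 11.5 FPKM in hippocampus Con and 14.5 FPKM in IR (log2 difference 0.33, adjusted p = 0.341).

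Partners of the encoded proteins did not pass the test in either region with all libraries. This held for the 7 tested genes of the CCR4-NOT deadenylase, its poly(A) partner and PRMT1 (for BTG), 8 tested of 10 MAP kinase and cell cycle genes (for GADD45), 5 synaptic substrates of PLK2, and 5 PP2A and HSF1 genes (for IER). Of the BTG partners *Cnot6* and *Cnot7*, both deadenylase subunits, had the smallest p, with log2 differences of 0.12 (adjusted p = 0.475) and 0.07 (adjusted p = 0.618) in the cortex. *Map2k3*, a kinase upstream of p38, was at 5.24 FPKM in cortex Con and 6.497 FPKM in IR (log2 difference 0.26, adjusted p = 0.181). *Pcna*, the replication clamp that binds GADD45 proteins, was at 32.9 and 27.7 FPKM in hippocampus Con and IR (-0.23, adjusted p = 0.312). *Hsf1*, the heat shock factor that IER5 binds, was higher in IR in both regions, by 0.20 (adjusted p = 0.181) in the cortex and 0.33 (adjusted p = 0.261) in the hippocampus, and *Ppp2r2d*, a regulatory subunit of PP2A, had -0.13 in the cortex (adjusted p = 0.324). Of the partners named here, *Pcna* (-0.31, adjusted p = 0.0356 by limma) and *Hsf1* (0.43, adjusted p = 0.0243 by limma) passed in the hippocampus without Con 3, where 6.33% of all genes did. Among the PLK2 substrates *Sipa1l1*, a spine protein, was higher by 0.25 in the cortex (adjusted p = 0.297).

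Of 12 transcription factors known to act on immediate-early genes, *Crem* rose in the cortex. *Crem* belongs to the CREB family, binds the CRE and is itself inducible. It was at 5.64 FPKM in Con and 8.30 FPKM in IR (log2 difference 0.49, adjusted p = 0.0321 by limma), whereas in the hippocampus it was at 4.66 and 4.50 FPKM (-0.04). The cortex difference was 0.43 without Con 1 (adjusted p = 0.0696), and none of the 12 genes passed there without Con 1, Con 3, IR 1, IR 2 or IR 3. Among the others, named after their values were seen, *Srf*, which binds the CArG box, had a log2 difference of 0.25 in the cortex (adjusted p = 0.210), and *Elk1*, its cofactor, of 0.34 in the hippocampus (adjusted p = 0.221). Without hippocampus Con 3 *Elk1* was at 0.29 (adjusted p = 0.0467 by limma), where 6.33% of all genes passed. The median of the 12 was 0.07 in both regions. The core of the CRE was matched in the windows of 4 of the 9 genes, of which *Plk3* rose in the cortex and *Btg1*, *Btg2* and *Plk2* did not pass, and *Ier5* rose without a match.

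Among p53 targets 8 of 9 genes were tested, and *Cdkn1a*, the cell cycle inhibitor p21, rose in both regions. Its cortex means were 6.01 FPKM in Con and 14.8 FPKM in IR (log2 difference 1.16, adjusted p = 0.000947 by limma) and its hippocampus means 2.12 and 6.18 FPKM (1.20, adjusted p = 0.00175 by limma). Without any 1 of the 3 hippocampus IR libraries none of the 8 genes passed there, nor did any of all tested genes. The 8 genes had a median of 0.14 (cortex) and 0.15 (hippocampus).

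Of 24 other rapid-response genes, 7 rose in the cortex, where 0.562% of all tested genes did. The list was chosen with earlier results of these data known, so its counts against all genes are a description. In the hippocampus 0 passed by limma. The unadjusted p was under 0.05 upward there for 2 of the 24, *Nfil3* and *Fos*, named after their values were seen. This count is near its background of 7.06% of all genes. The median log2 difference was 0.68 in the cortex and 0.12 in hippocampal libraries. Cortex Con 1, the lowest Con library for 21 of these genes, bears on these values. Without it, a setting chosen for this list after seeing the data, 8 rose, against 0.394% of all genes, and the median was 0.56. The hippocampus median was 0.02 without IR 3 and 0.20 without IR 1. The cortex count was 5 without Con 2, 6 without Con 3, 2 without IR 1, 3 without IR 2 and 3 without IR 3, where 0.437%, 0.272%, 0.093%, 0.143% and 0.193% of all genes rose. The largest changes among those that passed were *Egr3* (0.97), *Homer1* (0.84), *Dusp6* (0.81) and *Fosb* (0.77). The call of *Fosb* was lost on leaving out any 1 of the 6 cortex libraries and that of *Dusp6* without IR 1, IR 2 or IR 3. *Egr3* and *Fosb* encode transcription factors, *Homer1* a synaptic scaffold and *Dusp6* a phosphatase of ERK. Cortex means in Con and IR were 35.9 and 71.6 FPKM for *Egr3* and 28.8 and 52.6 FPKM for *Homer1*. They were 19.4 and 34.5 FPKM for *Dusp6* and 3.28 and 6.31 FPKM for *Fosb*. The unadjusted p was under 0.05 upward in the cortex for 17 of the 24 genes and 4 of the 10 regulators, against 8.16% of all genes. Without Con 1 these counts were 20 and 2, against 7.73%. The interaction passed for 3 of the 24, *Egr3*, *Homer1* and *Bdnf*, each with the lower effect in the hippocampus, against 0.083% of all genes. It passed for 0 of all tested genes by limma without cortex Con 1, IR 1, IR 2 or IR 3 or hippocampus IR 1 or IR 2. Without cortex Con 3 or hippocampus Con 2 it passed for 1 of all genes, in the latter for *Egr3* and in the former for a gene outside the 24. Without cortex Con 2 it passed for *Egr3* alone among the 24, against 0.0417% of all genes. The difference between the lists was not tested.

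**Figure D5:**
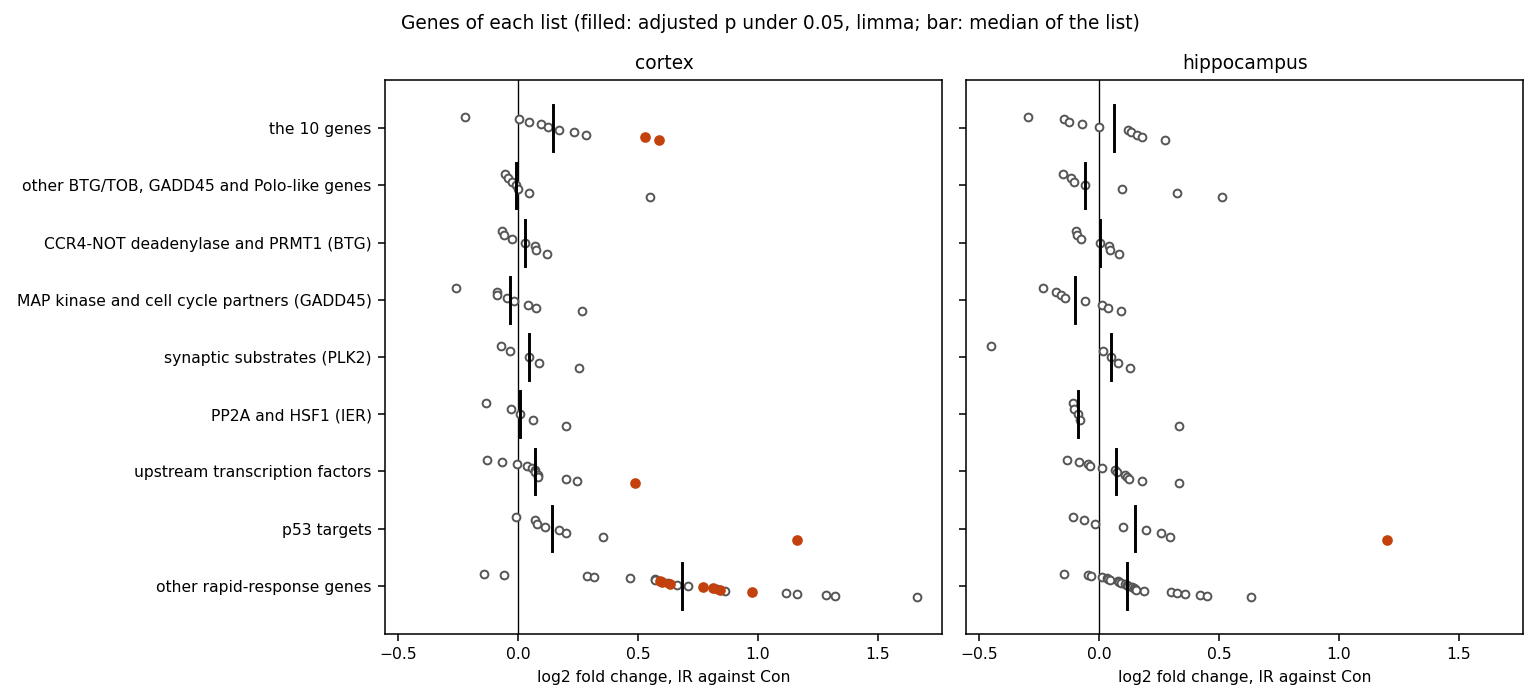
Log2 fold change of IR against Con (horizontal axis, log2(FPKM + 1) scale) for each tested gene of the 9 lists (vertical axis) in the cortex and the hippocampus; points are genes, filled where the adjusted p was under 0.05, and the bar is the median of the list. The other rapid-response genes have medians of 0.68 (cortex) and 0.12 (hippocampus), beside 0.15 (0.08 without cortex Con 1) and 0.06 for the 10 genes.

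Marker genes of several cell types had differences of a shared sign in IR, although only *Csf1r* in the hippocampus passed the test (adjusted p = 0.0126 by limma). The *Csf1r* call was lost without hippocampus Con 1, where no gene fell. It was also lost without IR 1, IR 2 or IR 3, where no gene passed in either direction. The counts below are signs of the log2 difference, and summed levels are given as the range over libraries. In bulk tissue, fewer cells of a type and less RNA per cell cannot be told apart. Microglial genes (*Csf1r*, *Cx3cr1*, *P2ry12* and *Tmem119*) had a negative sign in 4 of 4 in both regions (unadjusted p under 0.05 for 2 cortex and 4 hippocampus differences), with summed levels of 53.2 to 59.0 FPKM in cortex Con and 35.0 to 51.7 FPKM in IR, and of 57.0 to 61.5 and 40.1 to 42.5 FPKM in the hippocampus. Endothelial genes had a positive sign in 4 of 4 in both regions (unadjusted p under 0.05 for 3 and 1). Their cortex sums were 38.0 to 47.3 FPKM in Con and 50.2 to 59.5 FPKM in IR. The hippocampus sums were 36.9 to 42.6 FPKM in Con and 47.6 to 49.9 FPKM in IR. Oligodendrocyte genes had a positive sign in 4 of 4 in the cortex (926 to 1142 FPKM in Con and 1158 to 1398 FPKM in IR) and a negative sign in 3 of 4 in the hippocampus (965 to 1167 and 889 to 1140 FPKM), with an unadjusted p under 0.05 for 2 in each region. Meningeal fibroblast genes had the opposite signs, negative in 4 of 4 in the cortex (12.2 to 16.5 and 9.83 to 12.7 FPKM) and positive in 4 of 4 in the hippocampus (12.1 to 24.8 and 20.9 to 31.9 FPKM), with no unadjusted p under 0.05. The 3 dentate genes had a positive sign in the hippocampus (69.2 to 91.0 and 87.5 to 95.3 FPKM), with an unadjusted p under 0.05 for *Prox1*. Astrocyte genes had a negative sign in 4 of 4 in the hippocampus (267 to 271 and 239 to 244 FPKM), with an unadjusted p under 0.05 for 3. The 5 neuronal genes summed to 2310 to 2681 FPKM in cortex Con and 2404 to 2619 FPKM in IR, with overlap. The 4 T cell genes in the files summed to at most 0.808 FPKM in any library. The part of these cell types in the results for the 10 genes was not tested.

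Correlations between the 10 genes over the 12 libraries varied in size and sign. After the mean of each region was taken away, the 45 pairs had a median Pearson r of 0.37, and 32 were above 0. The same values over all gene pairs are not given here, so these have no background to be read against. The highest was *Btg2* with *Gadd45g* (0.82), which share the low value of cortex Con 1, and *Ier5* with *Plk3* had 0.68. The lowest was *Ier5* with *Gadd45g* (-0.42). Among 12847 genes the 3 most like *Ier5* were *Tacc1* (0.969), *Sowahb* (0.968) and *Sik3* (0.949), and those most like *Plk3* were *Grpel2* (0.892), *Bdnf* (0.881) and *Heph* (0.879). *Plk2* was most like *Rnmtl1* (0.957), *Mrps31* (0.931) and *Parp1* (0.918), and *Ier2* most like *Fam32a* (0.917), *Dusp1* (0.889) and *Fgfr1* (0.870). *Btg2* was most like *Scn3b* (0.946), *Gadd45g* most like *Tubb2a* (0.946), *Btg1* most like *Madd* (0.930), *Gadd45b* most like *Rbm12b1* (0.912), *Ier3* most like *Pttg1* (0.896) and *Ier5l* most like *Ppif* (0.862). These values describe 12 libraries that share group, region and scaling, and carry no test.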

How the data were processed

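RNA from the cortex and hippocampus was sequenced with paired-end reads of 100 bases. Sources differ on the RNA: the labels give Trizol and total RNA, the study's methods an RNeasy Lipid kit with poly(A) selection. The deposited values are FPKM, which the authors made by trimming (FASTX_Trimmer, BBMap), alignment with TopHat to mm10 (build per the submitters' processing notes), quantification with Cufflinks and geometric normalization in edgeR. Versions and annotation are not given in the sources used here. Depth in reads is unknown; relative depth, from the steps between low values, was 1 to 1.12 (Con 1 of each region = 1).

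Libraries were grouped by their labels. A gene was tested if 3 or more of the 6 libraries compared had 0.5 FPKM or above, and the test was run on log2(FPKM + 1) with limma 3.58.1 in R 4.3.3 (two-sided, variance trend, robust prior, Benjamini-Hochberg over all tested genes). This scale understates changes of low genes. The interaction used all 12 libraries. An exact permutation test of 3 against 3 cannot give a p below 0.1. All 10 genes are named. Of each list, up to 4 genes with an adjusted p under 0.05 are named, otherwise the 2 with the smallest p. The values of 1 listed gene are not reported here. For likeness the 3 genes with the highest Pearson r were taken among genes of at least 1 FPKM. The members and lists were chosen with earlier results of these data known. Loci came from GENCODE M21 (GRCm38) and promoters from RefSeq. Alternatives were other filters, a pseudocount of 0.1, the ratio of means, median ratio scaling, quantile normalization, limma without trend or robust prior, a single fit of 12 libraries, a replicate block and leaving out each library. The block was the replicate number, and for the interaction it was the treatment and number together.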

Additional observations from a re-analysis of the deposited data

Results flagged for a closer look

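The effect of irradiation on *Ier5* differed between the regions, with an interaction (hippocampus minus cortex) of -0.7332 on the log2 scale and an adjusted p of 0.0359 by limma. The adjusted p was 0.141 with the replicate block and above 0.05 in 13 of 19 alternatives, 10 of which left out a library. The cortex IR libraries were above Con, and 2 of the 3 hippocampus IR libraries were below Con. *Plk2* was higher than every Con library in the 3 cortex IR libraries and lower than every Con library in the 3 hippocampus IR libraries. Its interaction was -0.3892 and did not pass after adjustment (adjusted p = 0.330 by limma). Oligodendrocyte markers had a positive sign in cortex IR in 4 of 4 and a negative sign in hippocampus IR in 3 of 4, with 0 of them passing after adjustment by limma and an unadjusted p under 0.05 for 2 in each region, and their part in these results was not tested.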

How the results depend on the processing

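The rise of *Ier5* in the cortex passed at an adjusted p under 0.05 in 14 of 14 alternatives with a test of their own (0.00412 to 0.0425), and that of *Plk3* in 6 of 14. The count of genes that rose in the cortex was 1 with no filter on low values, with limma without trend or robust prior and with all 12 libraries in a single fit (0.0943%, 0.0995% and 0.476% of all genes), and 1 to 2 when a library was left out (0.0930% to 0.437%). At an unadjusted p it was 2 with all 12 libraries in a single fit (7.02%) and 2 to 5 when a library was left out (5.01% to 8.59%). With the fold of at least 1.5 it was 2 with the ratio of means or a pseudocount of 0.1 (1.07% and 1.00%), 0 with median ratio scaling or quantile normalization (0.363% and 0.3697%), and 0 to 2 when a library was left out (0.351% to 0.480%). In the hippocampus the count at an unadjusted p was 1 with no filter or without trend or robust prior (11.3% and 13.1%) and 0 to 2 when a library was left out (8.35% to 26.0%). The interaction count was 0 with no filter (0.0356%), without trend or robust prior and with the replicate block (0 of all genes in both), and 0 to 1 when a library was left out (0 to 3.38%).

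Directions turned only where the difference was small. Leaving out a library gave -0.01393 to 0.1188 for *Btg1* and -0.3101 to 0.2128 for *Btg2* in the cortex, -0.1013 to 0.07348 for *Ier3* and -0.1336 to 0.01391 for *Ier5l* in the hippocampus, and -0.1223 to 0.3199 for *Gadd45g* between the regions in Con. For the interaction it gave -0.2538 to 0.05526 for *Ier2*, -0.05361 to 0.4693 for *Btg2* and -0.08033 to 0.1284 for *Gadd45b*. *Btg2* in the cortex was -0.05593 by the ratio of means, -0.005627 with median ratio scaling and -0.007027 with quantile normalization. *Ier3* in the hippocampus was 0.0001146 with a pseudocount of 0.1 and 0.007601 with median ratio scaling. The cause was not tested.

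Libraries of the same number did not consistently deviate together, with r from -0.377 to 0.0681 between Con and IR of a region and from -0.0541 to 0.181 between the regions, so the numbers are not taken as pairs. Between the regions Con 1, Con 3 and IR 3 correlated best with their own number, and Con 2, IR 1 and IR 2 did not. With the replicate block the interaction of *Ier5* had an adjusted p of 0.141, and *Btg2* passed between the regions in Con (adjusted p = 0.0113 by limma). The block changed no other call of the 10 genes. Depth in reads is unknown, and 3 libraries a group limit the precision.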
